A study of Mus musculus with 8 samples.

Results

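The mouse mitochondrial genome carries 13 protein-coding genes, and 7 of them, mt-Nd1, mt-Nd2, mt-Nd4, mt-Nd5, mt-Nd6, mt-Cytb and mt-Co1, are described here from poly-A RNA sequencing of cultured mouse neurons. They were chosen by name as rows of the count table, which has 32726 gene rows in all. An eighth gene, mt-Co2, has a row at 0 and is treated beside them, and the rest were not analysed here. The 4 KO libraries (KO1 to KO4) came from animals with a constitutive Nuak1 deletion, and the 4 WT libraries (WT1 to WT4) from wild-type animals, all on a C57Bl/6JRj background. The neurons were embryonic cortical neurons held in serum-free culture for 5 days in vitro, although the tissue label of every library reads cortex or hippocampus. KO1, KO4, WT1 and WT3 were labelled lane A and KO2, KO3, WT2 and WT4 lane B. The strain labels, whose meaning the labels do not explain, were BJ for KO1, KO2 and KO3, BK for KO4, WT2 and WT4, BO for WT1 and BQ for WT3. NUAK1 is a kinase related to AMPK, and the study asked how it bears on mitochondrial metabolism in developing axons.

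Mitochondria keep their own small circular genome, which encodes core subunits of the respiratory chain, while all other subunits are encoded in the nucleus and imported. It is transcribed as long precursors from a promoter on each strand by the polymerase POLRMT with the factors TFAM and TFB2M. The precursors are cut, mostly at tRNAs that lie between the genes, and most of the resulting mRNAs receive a poly-A tail. mt-Nd1, mt-Nd2, mt-Nd4, mt-Nd5 and mt-Nd6 encode membrane subunits of complex I (NADH dehydrogenase), mt-Cytb encodes cytochrome b of complex III, and mt-Co1 and mt-Co2 encode catalytic subunits of complex IV (cytochrome c oxidase). mt-Nd6 is the only one of these on the opposite strand, and in human cells its mRNA is known to have little or no poly-A tail.

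The nuclear genome holds old copies of mitochondrial DNA, and only reads that aligned to a single place were counted, so the sequence of a gene bears on how many of its reads could be counted. In the NCBIM37 mouse genome the longest copy lay on chromosome 1 at 24618374 to 24623027, where 4654 aligned bases matched mitochondrial positions 6390 to 11042 with 99.936% identity. It began inside mt-Co1, took in the whole of mt-Co2 and ended inside mt-Nd4. The stretches at both ends of the copy and the start of mt-Co2 show how it cuts the genes. Capitals mark bases inside the copy, the first line spans bases 1033 to 1092 of mt-Co1, the second bases 847 to 906 of mt-Nd4 and the third the first 60 bases of mt-Co2.
mt-Co1: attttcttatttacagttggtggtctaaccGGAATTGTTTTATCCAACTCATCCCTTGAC
mt-Nd4: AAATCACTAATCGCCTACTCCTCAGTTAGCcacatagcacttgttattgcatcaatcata
mt-Co2: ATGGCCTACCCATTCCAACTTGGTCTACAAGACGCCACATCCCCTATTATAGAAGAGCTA

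All 635 windows of 50 bases in mt-Co2 had an exact copy in a nuclear chromosome, and mt-Co2 had 0 counts in each of the 8 libraries. A count of 0 allows up to 3 counts per library and covers counting error only. For mt-Nd4 62.2% of such windows had an exact nuclear copy and for mt-Co1 51.1%, the latter together with a copy on chromosome 2. The share was 8.29% in mt-Nd2 and 7.61% in mt-Nd5. No window of mt-Nd1, mt-Nd6 or mt-Cytb had one. The search for rows annotated mostly inside nuclear copies left out a chromosome. The 8 rows it found held few counts, 111 to 228 summed per library, at most 0.0151% of the counts of the 7 genes. The highest of them was Gm13341 with 54 to 106 counts. The authors aligned to mm10, whose sequence was not used here, so these shares hold for NCBIM37.

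The strands differ in base composition, as the first 90 bases of mt-Nd6, mt-Nd5 and mt-Cytb show, with G in capitals. The sequences are written as in the mRNA, in DNA letters. G made up 28.1% of mt-Nd6 and C 5.97%, whereas G made up 8.0% of mt-Nd2, 9.98% of mt-Nd5 and 12.2% of mt-Cytb.
mt-Nd6: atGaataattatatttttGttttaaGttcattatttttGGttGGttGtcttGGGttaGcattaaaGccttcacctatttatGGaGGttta
mt-Nd5: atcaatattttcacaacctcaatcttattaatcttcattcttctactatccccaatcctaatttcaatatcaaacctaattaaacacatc
mt-Cytb: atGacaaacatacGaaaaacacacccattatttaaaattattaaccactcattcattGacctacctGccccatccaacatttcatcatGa

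On the mitochondrial chromosome (GRCm38, positions identical in NCBIM37) mt-Nd1 spans 2751 to 3707, mt-Nd2 3914 to 4951, mt-Co1 5328 to 6872, mt-Co2 7013 to 7696, mt-Nd4 10167 to 11544, mt-Nd5 11742 to 13565, mt-Nd6 13552 to 14070 and mt-Cytb 14145 to 15288. None of them has introns. mt-Nd5 and mt-Nd6 overlap by 14 bases on opposite strands. The library kit keeps strand, but whether the counting used it is not given in the sources used here, so reads of mt-Nd6 and of precursor RNA opposite to it cannot be told apart.

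The 7 genes included the rows with the most counts in these cultures, gene length aside. Ranked by mean count scaled to a library total of 1000000 (CPM) over all 32726 rows, mt-Cytb was number 1, mt-Co1 number 2, mt-Nd1 number 3, mt-Nd5 number 5, mt-Nd2 number 7 and mt-Nd4 number 9, so that 6 of the top 10 rows were members. mt-Nd6 was number 4076. Per kilobase of annotated gene, mean levels over 8 libraries were 9585 ± 2799 CPM (SD) for mt-Cytb, 6496 ± 1897 for mt-Nd1, 5706 ± 1545 for mt-Co1, 4249 ± 1286 for mt-Nd2, 2941 ± 1033 for mt-Nd5, 2750 ± 835 for mt-Nd4 and 115 ± 36.2 for mt-Nd6.

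Levels varied widely between libraries, while the order of the genes within a library was steadier. mt-Cytb stood above mt-Nd1 in 8 of 8 libraries, by 1.36 to 1.58 times, and mt-Nd1 stood above mt-Co1 in 8 of 8, by 1.01 to 1.24 times. mt-Nd5 and mt-Nd4 exchanged places, mt-Nd5 being higher in 6 of 8. mt-Nd4 exceeded mt-Nd6 by 14.7 to 35.1 times.

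The place of mt-Co1 and mt-Nd4 in this order depended on the length used. Counted per 1000 window positions of 50 bases without an exact nuclear copy, a scale chosen after the data were seen, mt-Co1 came first with 12059 ± 3266 CPM, followed by mt-Cytb with 10014 ± 2924 and mt-Nd4 with 7549 ± 2292. With windows of 100 bases mt-Cytb came first again, with 10493 ± 3064 CPM, above mt-Co1 with 8815 ± 2387 in 8 of 8 libraries. The sources differ on the read length, so which window length fits these reads is not settled here. mt-Nd6 was last on every scale, with 127 ± 40.0 CPM for windows of 50 bases.

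**Figure D1:**
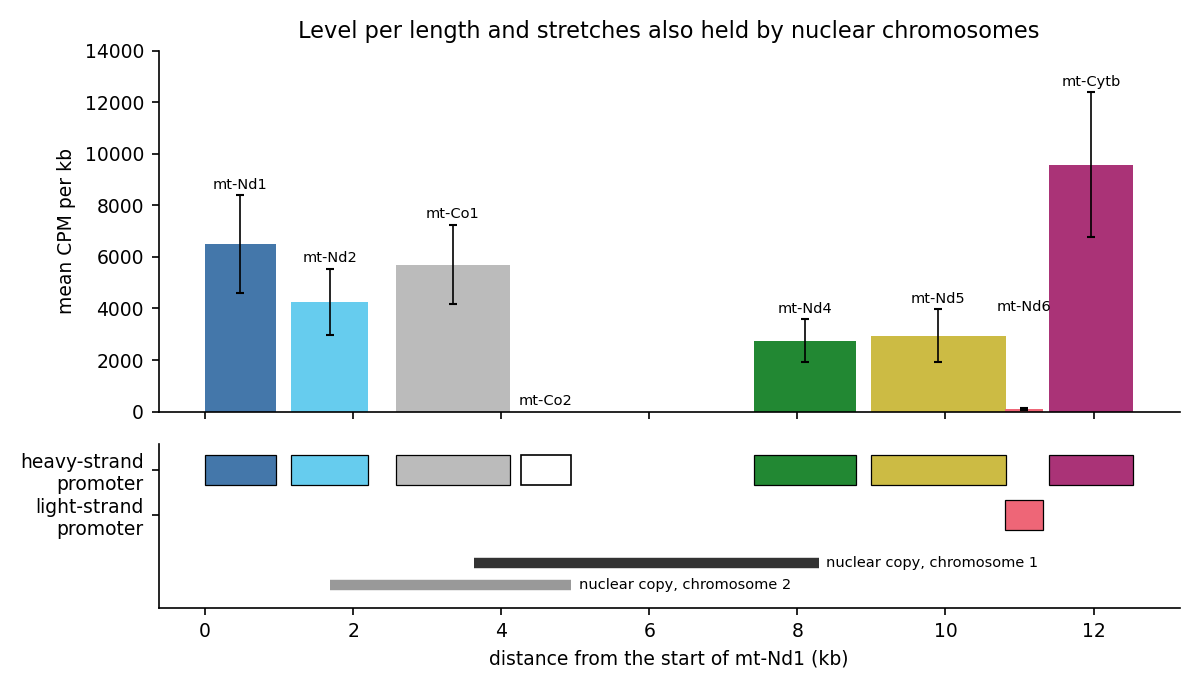
Mean CPM per kb of annotated gene (bars, SD over 8 libraries) along the mitochondrial genome, with distance in kb from the start of mt-Nd1 on the horizontal axis, and the stretches also held on nuclear chromosomes 1 and 2 (NCBIM37) as lines. mt-Co2, drawn open, lies wholly inside the chromosome 1 copy and had 0 counts. mt-Cytb, outside both drawn copies, had 9585 CPM per kb. It lies inside a copy on chromosome 4, not drawn, with 93.0% identity.

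Together the 7 genes held between 2.33% and 5.88% of all counts. The share was 5.88% in KO1, 3.50% in KO2, 3.58% in KO3 and 3.37% in KO4. It was 5.46% in WT1, 4.12% in WT2, 2.33% in WT3 and 3.47% in WT4. KO1 and WT1 were highest in their genotypes, the lowest library was WT3, and the genotypes overlapped. Totals ranged from 31247078 to 67155004 counts per library, so that counting error was small, the 95% Wilson interval in KO1 being 5.87% to 5.89%.

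The mean share was 4.08% ± 1.20 (SD, n = 4) in KO and 3.84% ± 1.31 (SD, n = 4) in WT. The difference of 0.240 percentage points was smaller than the spread within either genotype. In bulk RNA, a different number of cells of a type and a different amount of mitochondrial RNA per cell cannot be told apart.

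**Figure D2:**
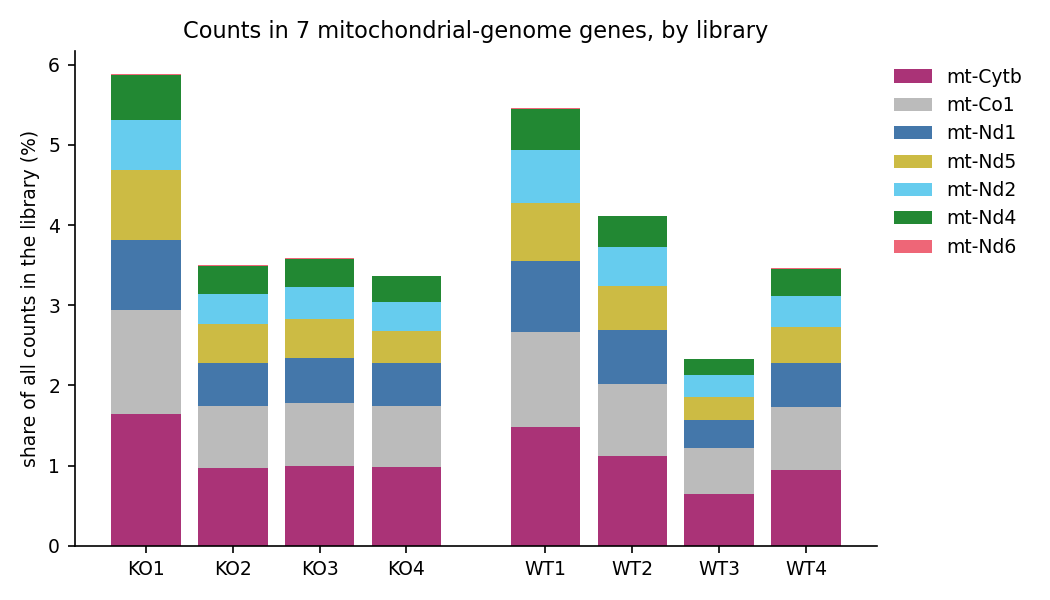
Share of all counts (%) taken by each of the 7 genes, stacked, in each library. The bars of KO1 and WT1 reach 5.88% and 5.46%, those of the other 6 libraries 2.33% to 4.12%, and mt-Nd6 is too thin to see.

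KO1 and WT1 averaged 5.67%, against 3.39% ± 0.585 (SD) in the other 6 libraries, a ratio of 1.67. These libraries were already known to stand apart from the others over all genes, so they are described here without a test. In a principal component analysis without the mitochondrial rows, KO1 at -28.2 and WT1 at -29.5 lay apart from the other 6, at 0.440 to 23.6, on the leading component (49.0% of the variance). Both were on lane A, whose other libraries, KO4 and WT3, had the 2 lowest shares of all 8.

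Each of the 6 genes transcribed from the heavy-strand promoter was higher in both KO1 and WT1 than in any other library. The same was true of 20.5% of the 16272 tested genes, and 28.8% were lower in both. mt-Cytb measured 16484 CPM in KO1 and 14786 in WT1, against 6485 to 11185 in the others, with a median of 9723. For mt-Co1 the values were 12874.5 and 11872.5 CPM, against 5687 to 8926, with a median of 7833. mt-Nd1 reached 8739 and 8822 CPM, against 3564 to 6856, with a median of 5449.

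The remaining complex I genes on that strand behaved alike. mt-Nd2 stood at 6190 and 6495 CPM, against 2664 to 4858 elsewhere. mt-Nd4 stood at 5651 and 5156 CPM, against 1987 to 3846. mt-Nd5, with 8810 and 7333 CPM against 2852 to 5471, had the largest ratio of the 6.

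The ratio of the mean of KO1 and WT1 to that of the other 6 was 1.81 for mt-Nd5, 1.68 for mt-Nd2, 1.66 for mt-Nd4 and mt-Cytb, 1.64 for mt-Nd1 and 1.62 for mt-Co1. A ratio at least as large as that of mt-Co1 was found for 2.78% of all tested genes. In all 6 genes WT3 was the lowest of the 8 libraries, as in 19.6% of tested genes.

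**Figure D3:**
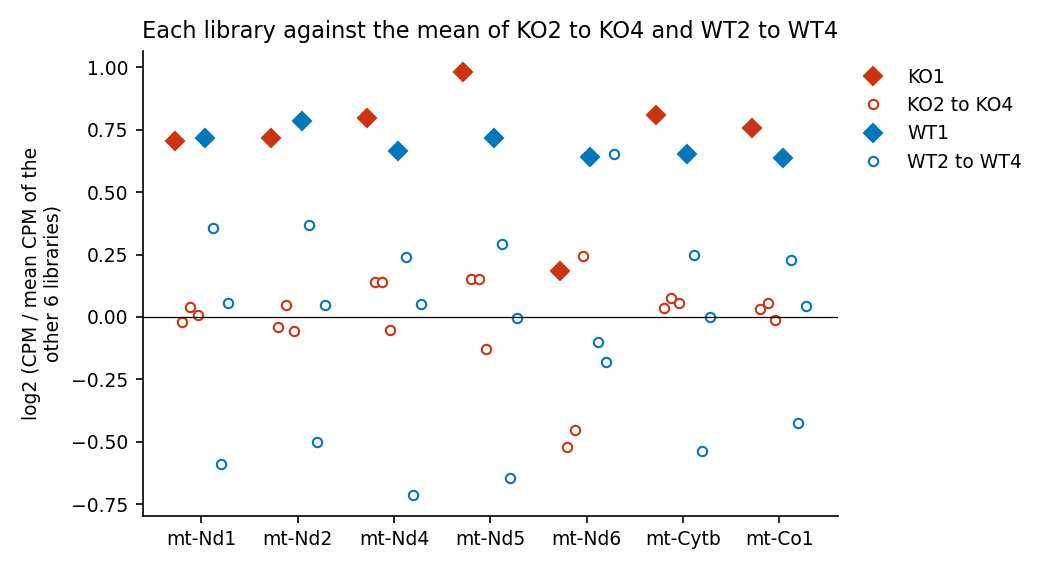
CPM of each gene in each library on a log2 scale, relative to the mean of KO2 to KO4 and WT2 to WT4. Diamonds mark KO1 and WT1, which lie above all circles for 6 genes and within them for mt-Nd6, where WT4 at 86.6 CPM was the highest library.

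mt-Nd6 differed from the other genes in its order of libraries. Its level was 62.5 CPM in KO1, 38.4 in KO2, 40.2 in KO3 and 65.2 in KO4. In WT it was 85.9 CPM in WT1, 51.4 in WT2, 48.6 in WT3 and 86.6 in WT4. KO1 and WT1 lay inside the range of the other 6, and WT4 and WT1 were the highest. The ratio of the mean of KO1 and WT1 to that of the other 6 was 1.35, above 1 like those of the other genes but smaller.

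Against the summed counts of the 6 genes on the other strand, mt-Nd6 had 1.06, 1.098, 1.12 and 1.94 counts per 1000 in KO1 to KO4. The WT values were 1.58, 1.25, 2.09 and 2.504 per 1000. The mean was 1.31 ± 0.424 (SD, n = 4) in KO and 1.86 ± 0.554 (SD, n = 4) in WT, and the genotypes overlapped.

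Correlations of log2 CPM show the same split, as a description over 8 libraries that share depth and composition effects. Pearson's r between the 6 heavy-strand genes was 0.960 to 0.994, and r of mt-Nd6 with them was 0.322 to 0.497. Without KO1 and WT1 the values were 0.919 to 0.997 and -0.0937 to 0.189 over 6 libraries.

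Other rows of the mitochondrial genome were low. The 6 tRNA genes with a row on the strand of mt-Nd6 summed to 1.09 to 3.61 CPM. The 10 with a row on the opposite strand summed to 11.6 to 22.5 CPM. The pair of ribosomal RNA genes summed to 4.94 to 12.03 CPM, after the authors' removal of ribosomal reads. KO1 and WT1 were not both outside the other 6 in any of these sums.

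The KO and WT libraries were then compared to ask whether the loss of Nuak1 goes with a change in these transcripts. Nuak1 itself measured 2.37 ± 0.317 CPM (SD, n = 4) in KO and 69.5 ± 13.2 (SD, n = 4) in WT. No genotype difference passed the test for any of the 7 genes. In edgeR's quasi-likelihood test with 1 surrogate variable 0 of the 7 passed an adjusted p of 0.05, where 8 of 16272 tested genes did (0.0492%). At an unadjusted p of 0.05 the count was also 0 of 7, against 10.5% of all tested genes, and DESeq2 (1.23% of genes called) and limma-voom (8 of 16272 genes called, 0.0492%) called 0 of 7 as well. The CPM ranges of KO and WT overlapped for all 7, where 2.4% of tested genes had ranges that did not.

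mt-Cytb, with 11465 ± 3348 CPM in KO and 10466 ± 3471 in WT (SD, n = 4), had a log2 fold change (KO over WT) of 0.08 ± 0.15 (SE), adjusted p = 0.874 by edgeR. mt-Co1, with 9041 ± 2560 CPM and 8589 ± 2571, had a log2 fold change of 0.02 ± 0.13, adjusted p = 0.974. These were the most precise estimates of this fit. For mt-Co1 the 95% interval of the change in KO ran from -16.8% to 23.2%. Without a surrogate variable it ran from -31.7% to 53.4%, with a standard error of 0.26 in place of 0.13. The surrogate variable was -0.565 in KO1 and -0.617 in WT1 and positive in the other libraries.

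Among the complex I genes the differences had both signs. mt-Nd5 had a log2 fold change of 0.11 ± 0.15 and mt-Nd4 of 0.11 ± 0.15, with adjusted p of 0.833 and 0.834 by edgeR. mt-Nd1 was at -0.04 ± 0.16 and mt-Nd2 at -0.09 ± 0.15, with adjusted p of 0.956 and 0.866. For these 4 genes the 95% intervals of the change in KO lay within -25.4% and 37.2%. Without a surrogate variable they were wider and lay within -40.0% and 82.3%.

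mt-Nd6 had the largest difference, 51.6 ± 14.3 CPM in KO and 68.1 ± 21.0 in WT (SD, n = 4), a log2 fold change of -0.42 ± 0.23, adjusted p = 0.555 by edgeR. The 95% interval of the change in KO ran from -48.1% to 7.82%. The median log2 fold change of the 7 genes was 0.02, against 0.01 for all tested genes.

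**Figure D4:**
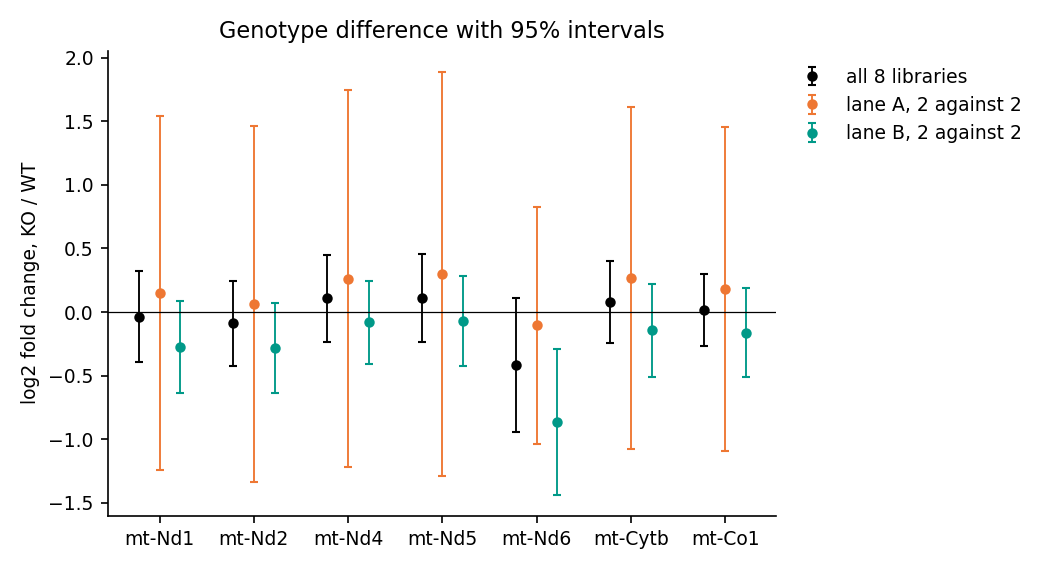
Log2 fold change of KO over WT from edgeR with 95% intervals, for all 8 libraries with 1 surrogate variable and for each lane alone. The intervals of all 7 genes cross 0 in the fit of all libraries and in lane A, and that of mt-Nd6 lies below 0 in lane B.

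Lane is the technical batch named in the labels, and both genotypes were on each lane. On lane A alone the log2 fold changes were positive for 6 genes, from 0.06 for mt-Nd2 to 0.30 for mt-Nd5, and -0.10 for mt-Nd6, with standard errors of 0.36 to 0.61. On lane B alone all 7 were negative, from -0.07 for mt-Nd5 to -0.87 for mt-Nd6, with standard errors of 0.15 to 0.22. mt-Nd6 on lane B, with 38.4 and 40.2 CPM in KO against 51.4 and 86.6 in WT, did not pass (adjusted p = 0.244 by edgeR), where 0.588% of genes did.

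The difference between lanes was tested as an interaction of genotype and lane, in a model without a surrogate variable. It was called for 0 of the 7 genes and for 0 of 16272 (0%), and at an unadjusted p of 0.05 for 0 of 7 and for 1.57% of all genes. The estimate was -0.76 ± 0.46 on the log2 scale for mt-Nd6 and -0.34 to -0.43 for the other 6, with adjusted p of 0.999984 for each by edgeR. With 1 surrogate variable the estimates were -0.82 ± 0.39 for mt-Nd6 and -0.39 to -0.53 for the others, with standard errors of 0.23 to 0.28 for the latter and adjusted p of 0.641 to 0.711 over the 7 genes. The genotypes on each lane were represented by 2 libraries each, and lane A held both KO1 and WT1 and the library with the lowest share, WT3.

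The mix of counts among the 7 genes was described by each gene's share of their summed counts. That sum is not the whole mitochondrial total. Only uniquely aligned reads enter it, so the nuclear copies of mt-Nd4 and mt-Co1 bear on these shares. mt-Cytb made up 27.1% to 29.1% of the counts of the 7 genes, mt-Co1 21.7% to 24.4%, mt-Nd1 14.9% to 16.6%, mt-Nd5 12.1% to 14.98% and mt-Nd4 8.53% to 10.2%, with KO and WT overlapping in each. The share of mt-Nd6 varied most for its size, from 0.106% in KO1 to 0.250% in WT4, and also overlapped. KO and WT did not overlap for mt-Nd2. It made up 10.5%, 10.5%, 10.9% and 10.8% in KO1 to KO4 and 11.9%, 11.8%, 11.4% and 11.2% in WT1 to WT4, so every KO library lay below every WT library.

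Shares of 1 total are not independent of each other. Taken relative to the summed counts of the 7 genes, KO and WT values did not overlap for 0.873% of all tested genes. They did not overlap for 1 of the 7. Library differences in that sum cancel for the 7 genes it is made of, but not for other genes. The 0.873% is therefore not a like background for mt-Nd2. The separation of mt-Nd2 was noticed after the values were seen and was given no test.

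Nuclear genes for subunits of complexes I, III and IV, and of complex V beside them, were lower in KO1 and WT1 more often than higher. Of 36 nuclear complex I subunits 19 were lower in both libraries than in any other and 4 were higher. Of 9 nuclear complex III subunits 5 were lower and 3 higher, of 12 for complex IV 7 were lower and 1 higher, and of 14 for complex V (ATP synthase) 6 were lower and 2 higher. The background was 28.8% of tested genes lower and 20.5% higher. The median ratio of KO1 and WT1 to the other 6 was 0.809, 0.653, 0.819 and 1.01 for complexes I, III, IV and V, against 1.66 for the 7 mitochondrial-genome genes and 0.976 for all tested genes.

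Single subunits went both ways. Ndufv1, which carries the NADH site of complex I, measured 52.9 and 45.3 CPM in KO1 and WT1, against 86.9 to 109 in the others. Ndufs1, another core subunit of the same complex, measured 136 and 132 CPM, against 92.2 to 101. Cox4i1 of complex IV measured 94.9 and 83.6 CPM, against 177 to 242, and Uqcrc2, a core protein of complex III, 237 and 201 CPM, against 160 to 182. Atp5b, the catalytic subunit of ATP synthase, overlapped, with 747 and 650 CPM against 614 to 717.

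With genotype 0 of these nuclear subunits passed the edgeR test at an adjusted p of 0.05, in either direction. At an unadjusted p of 0.05 complex I had 4 higher and 0 lower and complex III had 1 higher and 0 lower, and complexes IV and V had none, where 10.5% of all tested genes passed. Their median log2 fold changes were 0.03, 0.09, 0.02 and 0.04 for complexes I, III, IV and V.

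**Figure D5:**
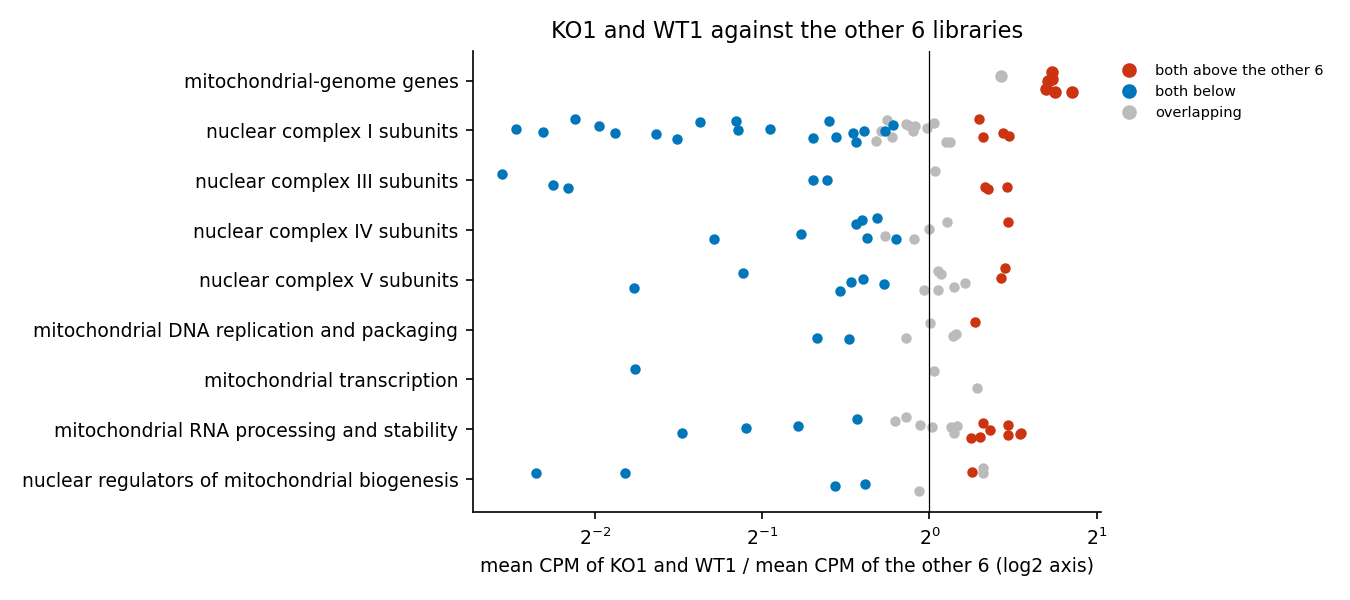
Mean CPM of KO1 and WT1 divided by the mean of the other 6 libraries, on a log2 axis, with 1 point per gene. Red points are genes for which both libraries lay above the other 6 and blue points those for which both lay below. 6 of 7 mitochondrial-genome genes are red, with ratios of 1.62 to 1.81, and 19 of 36 nuclear complex I subunits are blue.

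Nuclear genes that serve the mitochondrial genome were also read. Of the 3 genes of mitochondrial transcription, Polrmt, the RNA polymerase, was lower in KO1 and WT1, with 7.27 and 6.18 CPM against 16.5 to 28.2. Tfb2m (3.76 and 4.90 CPM against 3.16 to 4.26) and Tfb1m (3.68 and 4.61 CPM against 3.40 to 4.80) overlapped. Of 7 genes of mitochondrial DNA replication and packaging 1 was higher and 2 were lower, where 20.5% of all tested genes were higher and 28.8% lower. Tfam, which packages the DNA and starts transcription, overlapped with 37.1 and 39.2 CPM against 31.1 to 37.3.

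Of 19 genes of mitochondrial RNA processing and stability 8 were higher and 4 lower, where 20.5% of all tested genes were higher and 28.8% lower. The lower ones, named after their values were seen, were Fastk, Ptcd1, Tbrg4 and Hsd17b10, with ratios to the other 6 libraries of 0.359, 0.467, 0.581 and 0.740. Lrpprc, which protects mRNAs of the heavy-strand promoter from decay, measured 134 and 129 CPM in KO1 and WT1, against 102 to 111. Ptcd3, a mitochondrial ribosome-associated protein, measured 88.4 and 89.9 CPM, against 53.5 to 71.0. Angel2 overlapped, with 86.7 and 95.3 CPM against 71.3 to 89.7. Of 8 nuclear regulators of mitochondrial biogenesis 1 was higher, Gabpa, and 4 were lower, among them Pprc1 with 38.3 and 34.0 CPM against 48.1 to 55.9. With genotype 0 genes of these 4 lists passed the edgeR test at an adjusted p of 0.05, and at an unadjusted p of 0.05 there were 1 higher in RNA processing and 1 lower in transcription, where 10.5% of all tested genes passed.

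Markers of cell types were read beside these values, and their part in the difference of the mitochondrial genes was not tested. Of 7 marker lists only the neuron list had a summed level in KO1 and WT1 outside that of the other 6 libraries. The summed level of 7 neuron markers was 1089 to 1107 CPM in KO1 and WT1, against 1558 to 2304 in the others. Of the 7, 2 were lower in both and 0 higher, where 28.8% of all tested genes were lower and 20.5% higher, and these shares apply to the marker counts that follow. One of the lower ones was Rbfox3, a neuronal nuclear protein, at 24.2 and 23.2 CPM against 38.5 to 72.2, named after its values were seen. The other was Tubb3, a neuronal tubulin, at 299 and 252 CPM against 725 to 1342, a ratio of 0.276. The median ratio of the 7 markers was 0.9305, so the summed level followed Tubb3 more than the others. Snap25 (285 and 311 CPM against 243 to 299) and Neurod6 (287 and 249 CPM against 242 to 339) overlapped.

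The other marker lists were read in the same way. Interneuron markers summed to 242 to 303 CPM in KO1 and WT1, against 159 to 266, with 1 of 6 higher. Astrocyte markers summed to 1361 to 1437 CPM, against 860 to 1661, with 1 of 7 higher and 1 lower. Markers of oligodendrocyte precursors summed to 532 to 552 CPM, against 446 to 535, with 1 of 5 higher and 4 lower. Pdgfra, the most abundant of them, was the higher one, with a ratio of 1.35, and the median ratio of the 5 was 0.533. Progenitor markers summed to 205 to 229 CPM, against 227 to 259, with 1 of 6 higher and 2 lower.

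Microglia markers were low, at 3.52 to 7.47 CPM in KO1 and WT1 and 2.87 to 36.7 in the others, and Tmem119 was at 0 in KO1 and WT1 and at most at 0.0578 CPM in the others. Endothelial and fibroblast markers were at 12.2 to 20.4 CPM against 6.88 to 34.7, and Cldn5 was at 0 in KO1 and WT1 and at most at 0.0384 CPM in the others. With genotype 0 genes of any marker list passed the edgeR test, and the sums overlapped between KO and WT in each list. Neuron markers ranged from 1107 to 2304 CPM in KO and from 1089 to 2035 in WT.

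The nuclear genes whose profile over the 8 libraries was most like the mean centred log2 CPM of the 7 genes were Ephx4 (Pearson's r = 0.993), Pdia3 (0.992), Hnrnph1 (0.989), Hnrpdl (0.987) and Phtf1 (0.986). These are the 5 highest of all other tested genes, and each r is a description over 8 libraries that share depth and composition. Over the 6 libraries without KO1 and WT1 their r was 0.958 to 0.983. Pdia3, a protein disulfide isomerase of the endoplasmic reticulum, measured 453 CPM in KO1 and 451 in WT1, against 238 in WT3 and 294 to 344 in the others. The members themselves had r of 0.963 to 0.992, except mt-Nd6 with 0.555. Each member is part of the mean it is set against, so these r are not comparable with those of the nuclear genes.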

How the data were processed

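Poly-A RNA of 4 KO and 4 WT cultures was sequenced, and the authors deposited an unnormalized table of counts by Ensembl gene. Per the labels and the study's methods, the authors trimmed reads (cutadapt 1.10), discarded ribosomal reads, aligned the rest to mm10 (STAR 2.5.3a) and counted uniquely aligned reads (HTSeq 0.6.1p1). These sources differ on read length, and whether strand was used is not given in the sources used here. Genes were matched by Ensembl ID.

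Counts were fitted over the whole table in R 4.3.3 with edgeR 4.0.16 (filterByExpr, TMM, robust quasi-likelihood F test, 1 surrogate variable from sva 3.50.0, Benjamini-Hochberg adjustment, threshold 0.05). The procedure was tested on simulated data. Alternatives included DESeq2 1.42.0 and limma-voom (limma 3.58.1). CPM are counts scaled to a library total of 1000000. Libraries held 31247078 to 67155004 counts, and no library duplicated another. P-values measure the spread between these libraries. Nuclear copies were found by blastn 2.17.0 (identity of at least 90%) and by exact matches of 50 and 100 bases in NCBIM37, from which the printed sequences were read through GENCODE transcripts. Named were the 7 genes, other mitochondrial rows, Nuak1, rows inside nuclear copies, list genes past the threshold or among the 3 highest by mean CPM, and the 5 nuclear genes most like the members. Rbfox3, Fastk, Ptcd1, Tbrg4 and Hsd17b10, and Tmem119 and Cldn5 as markers at or near 0, were named after their values were seen. Members and lists were chosen with earlier results of these data known.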

Additional observations from a re-analysis of the deposited data

Results flagged for a closer look

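Within each genotype a library was marked when the distance to its closest neighbour, divided by the range of the 4 libraries, exceeded Dixon's 95% critical value. Of 30 groups examined, 7 held such a library. Chance alone marks about 1 in 20 groups, but the groups are not independent, and KO1, which accounts for 5 of the 7, was known beforehand to stand apart, so its marks are a description and no test.

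KO1 was above the other KO libraries for all 6 heavy-strand genes and passed this value for 4 of them. It measured 8739 CPM for mt-Nd1 against 5281 to 5511, 6190 CPM for mt-Nd2 against 3624 to 3895, 16484 CPM for mt-Cytb against 9652 to 9929, and 12874.5 CPM for mt-Co1 against 7571 to 7924. The summed share of the 7 genes was 5.88% in KO1 against 3.37% to 3.58%. In WT the libraries were more spread out and none stood apart in these values.

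In KO4 mt-Nd6 made up 0.194% of the counts of the 7 genes, against 0.106% to 0.112% in the other KO libraries. In WT3 mt-Cytb made up 27.8% of them, against 27.1% to 27.2% in the other WT libraries.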

How the results depend on the processing

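No member passed the threshold under any of 24 alternatives to the genotype fit. The number of genes called over the whole table, 8, was 4 with 0 surrogate variables, 17 with 2, 4 with lane as a term, 4 with an indicator for KO1 and WT1, 1 with the strain label as a term, 49 without a filter, 165 with DESeq2, 0 on lane A alone, 99 on lane B alone and 3 without KO1 and WT1. Leaving out 1 library in turn gave 3 to 114, the highest without WT3 and 3 without KO3 or without WT2. The median log2 fold change of the 7 genes ranged from -0.22 to 0.18 over the alternatives, and its sign was not stable. With the strain label as a term, on lane B alone and without WT3, all 7 were below 0, and without WT2 6 of 7 were above 0, with mt-Nd5 at 0.29 (unadjusted p under 0.05, adjusted p = 0.519 by edgeR). mt-Nd6 was below 0 under all 24, from -0.87 to -0.08, with adjusted p of 0.244 or more. It was -0.08 ± 0.39 (SE) when strain label entered the model. BJ was in KO and BO and BQ in WT alone, so that strain label and genotype can be told apart only through BK. It was -0.26 without WT4. Its unadjusted p was under 0.05 in 3 of the 24, on lane B alone, without KO4 (log2 fold change -0.68, adjusted p = 0.293 by edgeR) and with the replicate block (-0.43, adjusted p = 0.455).

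With the replicate number as a block 3 genes and 0 members were called. Same-numbered libraries correlated at 0.788, 0.00934, 0.237 and -0.0110 in their deviations from the genotype means, and 2 of 8 libraries correlated best with their own number, so the numbers were not taken as pairs. The cause of these changes was not tested.

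The KO minus WT difference of the summed share, 0.240 percentage points, ranged from -0.360 to 0.777, so its sign was not stable. The excess of KO1 and WT1 over the other libraries, 2.27 points, ranged from 2.06 to 2.82 and was 2.82 against KO4 and WT3 only. On the window scale mt-Nd4 moved to 7549 CPM for windows of 50 and of 100 bases and mt-Co1 to 12059 and 8815, because fewer positions enter the length. Depth did not limit these values.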
